A study of Mus musculus with 17 samples.

Results

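The 43 genes described here encode the subunits of the receptors for GABA and glutamate, the main inhibitory and excitatory transmitters of the brain. They are the protein-coding genes in the files whose symbols begin with the stems of the GABA-A subunits (Gabra, Gabrb, Gabrg, Gabrd, Gabre, Gabrq, Gabrr), the GABA-B subunits (Gabbr), or the AMPA (Gria), kainate (Grik), NMDA (Grin) and metabotropic (Grm) glutamate receptors. The rule leaves out Grm3, which was not analysed here, and Grina, which is no receptor subunit of these families. The files list 58512 gene identifiers, of which 21974 are protein-coding, and 20 of the 43 members belong to GABA receptors and 23 to glutamate receptors.

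GABA-A receptors are chloride channels built from several subunits, usually alpha, beta and gamma or delta, whose mix sets where the receptor sits and how quickly its current fades. AMPA, kainate and NMDA receptors are cation channels opened by glutamate, while GABA-B and metabotropic glutamate receptors signal through G proteins. These receptors are best known from neuronal synapses. Astrocytes carry some of them too, among them GABA-A receptors with Gabra2, Gabrb1 and Gabrg1, the GABA-B receptor and Grm5, and oligodendrocyte precursors receive GABA and glutamate input from axons.

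All animals were male mice of the genotype GFAP-Cre+/- Rpl22HA/wt, in which Cre driven by the GFAP promoter switches on an HA tag on the ribosomal protein Rpl22, and RNA was recovered from HA-tagged ribosomes precipitated from the dissected corpus callosum. The mice were 8 to 9 weeks old at the start. Cuprizone binds copper, and feeding it makes oligodendrocytes die and myelin break down. It was given as 0.2% of the chow for 5 weeks, and brains were taken then (5 weeks), after 0.5 weeks back on regular chow (5.5 weeks) or after 2 weeks back on it (7 weeks). Mock mice of the same age ate normal chow throughout. The labels give 17 libraries in 6 groups.

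In 8 of the 17 libraries, 46.6% to 96.4% of the genes with 500 or more counts equalled another library of the same group plus an integer from 1 to 10, and these were not counted as samples. The comparisons therefore rest on 3 cuprizone and 2 mock libraries at 5.5 weeks, 1 of each at 5 weeks and 1 of each at 7 weeks, with 20797535 to 30400048 counts each. The 5-week libraries are a batch of their own, so a difference between 5 weeks and the later weeks cannot be told apart from the batch. The 7-week cuprizone library stood apart, with 34576 genes with a count against 19496 to 23980 in the other 8. Astrocyte, neuronal and oligodendrocyte markers were all abundant in every library: 12 astrocyte markers summed to 9265 to 18292.5 CPM (counts scaled to library depth with TMM factors), 12 pan-neuronal markers to 6855 to 14832 CPM and 12 mature oligodendrocyte markers to 10107 to 23962 CPM. Receptor transcripts can thus not be assigned to 1 cell type here, and fewer cells of a type and less RNA per cell cannot be told apart.

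Levels were compared between subunits as CPM per kilobase of exon, averaged over the 4 mock libraries of the 3 weeks. Among the GABA-A alpha subunits, which form the GABA site together with beta, Gabra5 stood highest at 38.9 (range 34.6 to 43.8). Gabra4 averaged 27.2 (22.3 to 33.8), Gabra2 19.2 (11.5 to 24.7) and Gabra3 15.5 (13.0 to 19.8). The range of Gabra5 lay above those of the other 3, while Gabra4 overlapped Gabra2 and Gabra2 overlapped Gabra3. The beta subunits Gabrb2 and Gabrb1 also overlapped, with Gabrb2 at 11.9 (9.99 to 14.9) and Gabrb1 at 10.9 (8.33 to 15.1). The gamma subunits Gabrg1 and Gabrg3 were separated by level, with averages of 5.47 (4.95 to 6.68) for Gabrg1 and 1.25 (0.949 to 1.95) for Gabrg3. Gabrd, the delta subunit of extrasynaptic receptors, averaged 10.9 (7.64 to 16.97). Of the GABA-B pair, Gabbr1, which binds GABA, averaged 41.8 (32.9 to 47.0) and Gabbr2, which couples to the G protein, 18.2 (15.6 to 20.5).

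On the same scale, Gria1 was the highest of all 43 members at 81.1 (59.2 to 102), followed among the AMPA subunits by Gria2 at 36.5 (31.5 to 40.4), Gria3 at 16.0 (12.5 to 20.9) and Gria4 at 4.87 (3.98 to 6.44), with no overlap between neighbours. Grin2a led the NMDA subunits at 17.4 (14.2 to 20.2), ahead of Grin2b at 9.02 (7.497 to 10.8) and the obligatory subunit Grin1 at 7.09 (6.14 to 8.58), and the ranges of Grin2b and Grin1 overlapped. Grin2c, an NMDA subunit known from astrocytes and cerebellar granule cells, averaged 3.35 (2.13 to 4.30), and Grin2d was near the bottom at 0.145 (0.0880 to 0.208). The kainate subunits were low, from Grik4 at 2.69 (1.95 to 3.54) through Grik2 at 1.46 and Grik3 at 1.24 to Grik5 at 0.904 and Grik1 at 0.581. Grm5, the metabotropic receptor best known from astrocytes and postsynaptic sites, averaged 13.8 (11.96 to 17.2) and overlapped Grm2 at 10.8 (5.76 to 16.8). Grm7, a presynaptic receptor, averaged 4.90, Grm4 1.36 and Grm8 0.991.

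**Figure D1:**
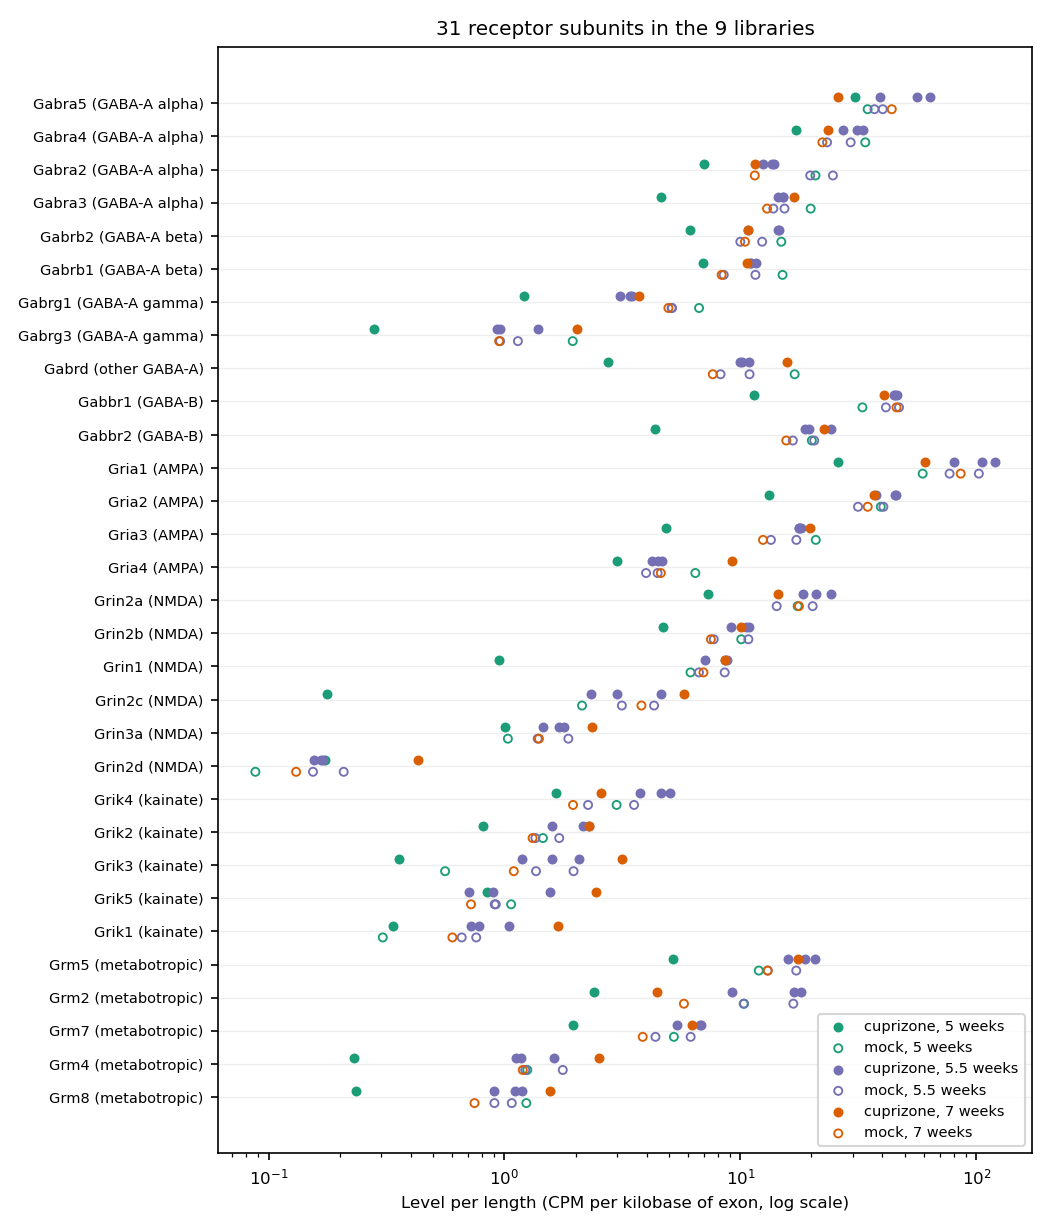
Level of 31 subunits in CPM per kilobase of exon (log axis), 1 point per library, filled for cuprizone (upper row of each gene) and open for mock (lower row), coloured by week. The 5-week cuprizone library lies left of its mock library for most genes, and at 5.5 weeks the filled and open points of most genes overlap.

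Of the 43 members, 8 lay below a mean of 1 CPM over the 9 libraries. They are Gabra6, which marks cerebellar granule cells, Grm6, known from retinal bipolar cells, Grin3b, Gabre, Gabrq, and the rho subunits Gabrr1, Gabrr2 and Gabrr3. All 8 had 0 counts in both 5-week libraries used, where 3 counts would be 0.144 CPM in the cuprizone library and 0.141 CPM in the mock library. In the 5-week mock replicate 1, not counted as a sample, Grin3b had 17 counts, Gabrr2 36 and Gabrr3 4, and the others had 0. Grin3b shares 32.1% of its exon bases with its neighbour Tmem259, and whether reads were counted by strand is not given in the sources used here, so its reads cannot be told apart from those of that gene.

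At 5.5 weeks, soon after cuprizone was withdrawn, 2 receptor subunits were called lower in cuprizone than in mock libraries and none was called higher. Both belong to GABA-A receptors: Gabra2 and Gabrg1. Of 36 members tested, these were the 2 called lower by edgeR at an adjusted p under 0.05, beside 0.392% of all 16086 genes tested, and 0 members were called higher, beside 1.08% of all genes (1.47% of all genes in either direction). At an unadjusted p under 0.05, 4 members were higher (6.27% of all genes) and 3 were lower (4.64%), and DESeq2 and limma-voom likewise called 0 higher and the same 2 lower. The median log2 fold change was 0.14 over the 36 members and 0.00 over all genes.

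Gabra2 encodes an alpha subunit common in forebrain GABA-A receptors. It measured 100, 93.1 and 103 CPM in the 3 cuprizone libraries, against 184 and 146 CPM in the 2 mock libraries. Every cuprizone library was below both mock libraries, with a cuprizone mean of 98.6 ± 4.91 CPM (SD, n = 3) and a mock mean of 165 ± 27.3 CPM (SD, n = 2). The log2 fold change was -0.74 ± 0.12 (SE), or 0.598 times the mock level, with an edgeR adjusted p of 0.0105. Without mock replicate 1 the call was lost, and that was also so when the 7-week mock library was added to the mock group (log2 fold change -0.48, edgeR adjusted p 0.36). In CPM per kilobase of exon, Gabra2 stood at 11.5 in that 7-week mock library, below the 13.7, 12.5 and 13.9 of the 5.5-week cuprizone libraries. That level rests on the library used, which holds 2522 counts of Gabra2. Mock replicates 1 and 2 of 7 weeks, which otherwise repeat it, hold 3633 and 3298.

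Gabrg1, a gamma subunit that astrocytes are known to express, measured 23.4, 26.0 and 26.4 CPM in cuprizone libraries, against 39.3 and 38.9 CPM in mock libraries. The groups did not overlap, with a cuprizone mean of 25.2 ± 1.63 CPM (SD, n = 3) and a mock mean of 39.1 ± 0.232 CPM (SD, n = 2). The log2 fold change was -0.63 ± 0.12 (SE) with an edgeR adjusted p of 0.0224. Leaving out cuprizone replicate 1 or 3, or either mock replicate, ended the call, with the fold change staying between -0.66 and -0.56 in all alternatives, while adding the 7-week mock library kept it (-0.61, edgeR adjusted p 0.00887). Per kilobase of exon, all 4 mock libraries (4.95 to 6.68) lay above all 5 cuprizone libraries (1.21 to 3.70) across the 3 weeks. These include the libraries that gave the call and the 5-week libraries, which are a batch of their own. How many of all genes separate in this way was not counted, so the separation is no further test of Gabrg1.

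Gabra2 and Gabrg1 are neighbours on chromosome 5, in a cluster with Gabra4 and Gabrb1 in the RefSeq annotation of GRCm38.p6. The other 2 genes of the cluster were not called. Gabra4 measured 182, 161 and 195 CPM in cuprizone libraries, against 174 and 137 CPM in mock libraries (log2 fold change 0.21 ± 0.13, SE, edgeR adjusted p 0.619). Gabrb1, the beta subunit known from astrocytes, measured 145, 157 and 149 CPM in cuprizone libraries, against 157 and 113 CPM in mock libraries (0.16 ± 0.13, SE, edgeR adjusted p 0.734). In both genes the groups overlapped. Gabra4 and Gabrb1 run in opposite directions and share 46 exon bases.

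**Figure D2:**
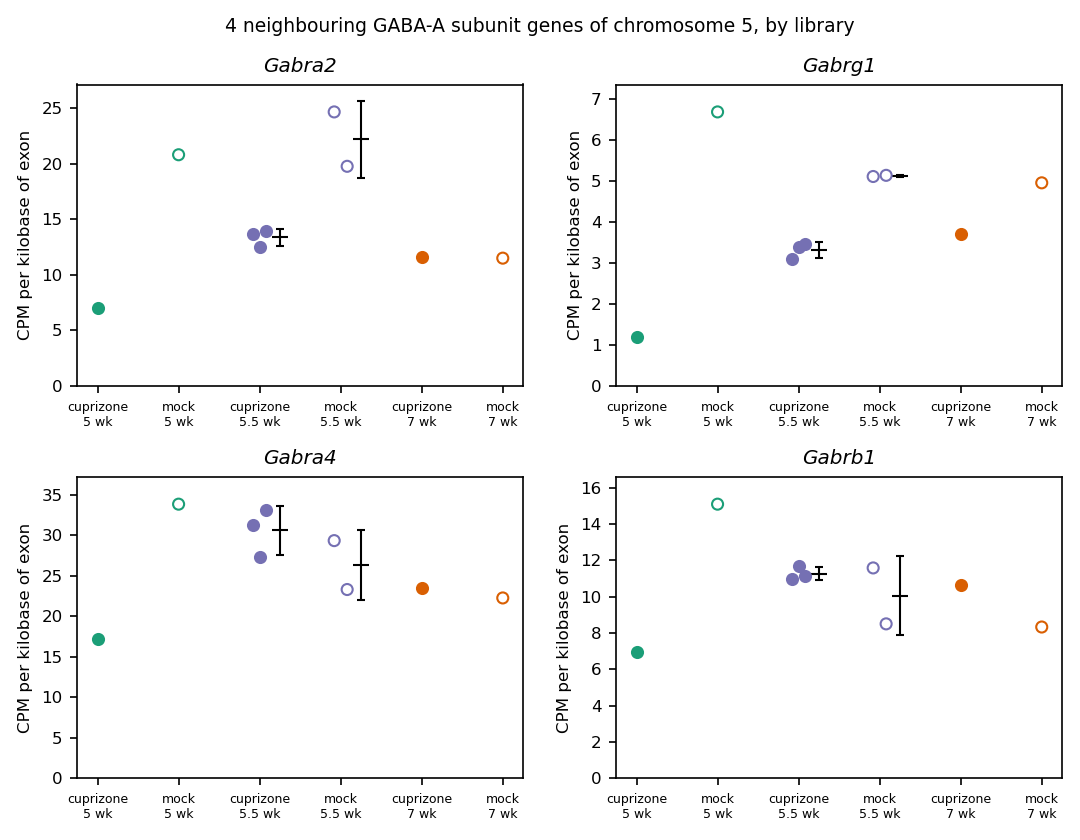
CPM per kilobase of exon of the 4 GABA-A subunit genes clustered on chromosome 5, 1 point per library, filled for cuprizone and open for mock, with mean and SD bars at 5.5 weeks (n = 3 and n = 2). Gabra2 and Gabrg1 sit lower in the cuprizone libraries at 5.5 weeks, and Gabra4 and Gabrb1 overlap. In the 7-week mock library used Gabra2 stands at 11.5, on 2522 counts, where mock replicates 1 and 2 hold 3633 and 3298.

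The promoters of these 4 genes are shown because 2 of the neighbours were called lower and 2 were not called. Each line gives 250 bases before to 50 bases after the start, read 5′ to 3′ on the gene's strand, from RefSeq on GRCm38.p6: Gabra2 at chr5:71095800-71096099 (minus strand), Gabrg1 at chr5:70842568-70842867 (minus), Gabra4 at chr5:71658259-71658558 (minus) and Gabrb1 at chr5:71657671-71657970 (plus). Capitals mark matches, on either strand, to the NFI motif TTGGC, the STAT site TTCNNNGAA and the SOX core ACAATG, motifs of factor families known from glia.
Gabra2: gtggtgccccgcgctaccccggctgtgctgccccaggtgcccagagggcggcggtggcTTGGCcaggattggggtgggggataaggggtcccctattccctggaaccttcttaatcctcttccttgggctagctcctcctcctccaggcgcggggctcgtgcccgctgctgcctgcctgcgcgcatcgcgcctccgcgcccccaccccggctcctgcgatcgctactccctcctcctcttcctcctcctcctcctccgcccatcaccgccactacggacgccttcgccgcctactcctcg
Gabrg1: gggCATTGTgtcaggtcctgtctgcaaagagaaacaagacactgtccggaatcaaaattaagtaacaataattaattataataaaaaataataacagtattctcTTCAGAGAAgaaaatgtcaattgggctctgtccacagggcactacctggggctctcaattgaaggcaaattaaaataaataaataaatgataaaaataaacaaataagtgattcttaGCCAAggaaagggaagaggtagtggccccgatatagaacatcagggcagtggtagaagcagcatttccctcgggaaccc
Gabra4: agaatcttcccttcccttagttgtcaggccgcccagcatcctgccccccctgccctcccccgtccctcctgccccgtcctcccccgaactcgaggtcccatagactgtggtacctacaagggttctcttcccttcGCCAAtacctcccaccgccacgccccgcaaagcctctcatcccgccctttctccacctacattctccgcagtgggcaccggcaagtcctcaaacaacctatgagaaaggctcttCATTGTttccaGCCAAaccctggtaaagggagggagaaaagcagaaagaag
Gabrb1: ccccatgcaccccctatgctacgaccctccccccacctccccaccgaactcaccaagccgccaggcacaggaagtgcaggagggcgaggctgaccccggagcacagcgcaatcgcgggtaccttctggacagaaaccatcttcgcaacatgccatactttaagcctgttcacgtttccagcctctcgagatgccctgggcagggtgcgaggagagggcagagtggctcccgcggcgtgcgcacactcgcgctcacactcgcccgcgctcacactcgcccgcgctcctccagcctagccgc

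The 2 genes called lower share little in these windows. The Gabra2 promoter is 70.0% G or C and the Gabrg1 promoter 38.3%, with 58.7% in Gabra4 and 66.0% in Gabrb1. Counting the first base of the gene as 1 with no position 0, Gabra2 held an NFI match at -192, and Gabrg1 held one at -29, a STAT match at -146 and a SOX match at -247. Gabra4, which was not called, held NFI matches at -115 and 11 and a SOX match at -1, and Gabrb1 held none of the 3 motifs. Of all 32851 RefSeq promoters of this length, 46.71% hold the NFI motif, 8.3% the STAT site and 12.57% the SOX core. No marked matches overlap one another, and a match describes letters only. The table held promoters for 30 of the 43 members.

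Of the other 34 members tested at 5.5 weeks, Gabrr2 was nearest to the threshold. This rho subunit of GABA receptors measured 0.473, 0.542 and 0.307 CPM in cuprizone libraries, against 1.32 and 1.19 CPM in mock libraries, from 8 to 14 counts in each cuprizone library and 32 to 38 in each mock library. The groups did not overlap (log2 fold change -1.51 ± 0.35, SE, edgeR adjusted p 0.0644). The remaining 33 had log2 fold changes between -0.22 and 0.61 and edgeR adjusted p of 0.225 or more. Over all 36, SEs ran from 0.11 to 0.35.

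At the top of that range was Grik4, a kainate subunit of high glutamate affinity, with 26.3, 21.7 and 28.8 CPM in cuprizone libraries against 20.6 and 13.0 CPM in mock libraries (0.61 ± 0.20, SE, edgeR adjusted p 0.225). Gabra5, known for extrasynaptic receptors of the hippocampus, measured 182, 113 and 160 CPM in cuprizone libraries against 108 and 115 CPM in mock libraries (0.45 ± 0.17, SE, edgeR adjusted p 0.335). Its lowest cuprizone library lay within the mock range. Gria1, the most abundant subunit per length, measured 695, 472 and 616 CPM in cuprizone libraries against 605 and 449 CPM in mock libraries, a difference within the spread (0.17 ± 0.17, SE, edgeR adjusted p 0.773). Gabrd (0.10, edgeR adjusted p 0.867), Gabbr1 (0.03, 0.952), Grin2a (0.29, 0.568) and Grm5 (0.28, 0.541) did not pass the test either. In all, 3 members were higher in all cuprizone than in all mock libraries (13.2% of all genes) and 3 were lower in all (14.8%). Gria3 and Grik4 were on the high side, and Gabra2, Gabrg1 and Gabrr2 on the low side.

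Genes that work with these receptors did not pass the test at 5.5 weeks. None of the 13 AMPA auxiliary subunits, 2 kainate auxiliary subunits, 10 GABA-A clustering and assembly genes, 4 GABA-B auxiliary subunits, 18 postsynaptic scaffolds or 7 transmitter synthesis and vesicle loading genes was called in either direction, nor were the 5 tested glycine and delta receptor subunits. Among marker lists, 0 of 12 pan-neuronal, 0 of 11 excitatory, 0 of 10 interneuron, 0 of 7 hippocampal and 0 of 9 striatal markers were called. Summed pan-neuronal markers ran from 9105 to 10149 CPM in cuprizone libraries and from 9468 to 10105 CPM in mock libraries. Some glial markers were called beside Gabra2 and Gabrg1. Of 12 astrocyte markers, Gfap alone was called higher, with 5425 ± 577 CPM in cuprizone libraries (SD, n = 3) and 1146 ± 43.5 CPM in mock libraries (SD, n = 2), and the median log2 fold change of the list was -0.06. The list, Gfap included, summed to 14425 to 17054 CPM in cuprizone libraries and 11004.5 to 11669 CPM in mock libraries. Gpr17 of 9 markers of oligodendrocyte precursors and newly formed cells was called higher (list sum 419 to 487 CPM under cuprizone and 351 to 364 CPM under mock), and of 12 mature oligodendrocyte markers 3 were called higher and 1 lower (19665 to 23962 CPM under cuprizone and 16360 to 17340.5 CPM under mock). No marker of these 3 lists was at 0. Of 6 ependymal and choroid plexus markers Ttr was called higher, and 0 of 9 tested microglial and 0 of 5 tested vascular markers were called. The part of these cell types in the lower Gabra2 and Gabrg1 was not tested.

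At 5 weeks, at the end of cuprizone feeding, receptor subunits were lower in the cuprizone library across nearly all classes. With 1 library per group the week has no test of its own, so genes with a mean of at least 1 CPM over the 9 libraries were set side by side as a log2 ratio of CPM. That ratio, to which a prior count of 2 was added, decides what is counted as 2-fold, while folds and their 95% intervals come from the counts scaled to depth without a prior count and cover counting error only. Of 35 members measured, 26 were at least 2-fold lower in the cuprizone library (14.4% of all 14195 genes measured) and 0 at least 2-fold higher (11.3% of all). The ratio lay below 1 for 32 of the 35 (50.7% of all) and above 1 for 3 (49.3% of all). The median log2 ratio was -1.41 over members and 0.00 over all genes, and the summed level of the 43 was 1512 CPM in the cuprizone library and 4031 CPM in the mock library. In 1 edgeR fit of the 9 libraries, in which the lone libraries are assumed to vary like those of 5.5 weeks, 28 of 39 members tested were called lower at 5 weeks (18.5% of all 20292 genes tested) and 0 higher (14.6%) at an adjusted p under 0.05.

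The largest differences among GABA receptors were in gamma and delta subunits. Gabrg3 had 3.49 CPM in the cuprizone library and 23.3 CPM in the mock library, a 6.67-fold lower level (5.22 to 8.63). Gabrd had 8.24 CPM in the cuprizone library and 48.9 CPM in the mock library (5.94-fold lower, 5.06 to 7.01). Gabrg1, called at 5.5 weeks, was 5.31-fold lower here (4.58 to 6.19), with 9.92 CPM under cuprizone and 52.7 CPM under mock. All 3 gamma subunits were at least 2-fold lower. Gabbr2 had 30.3 CPM in the cuprizone library and 135 CPM in the mock library (4.45-fold lower, 4.08 to 4.85), and Gabbr1 92.2 CPM under cuprizone and 256 CPM under mock (2.78-fold lower, 2.64 to 2.93).

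All 3 beta subunits were at least 2-fold lower, among them Gabrb2 with a log2 ratio of -1.22 and Gabrb1 with -1.06. Of the 5 alpha subunits measured, 3 were at least 2-fold lower, among them Gabra3 with 18.95 CPM in the cuprizone library and 78.1 CPM in the mock library (4.12-fold lower, 3.69 to 4.61) and Gabra2 with 55.8 CPM in the cuprizone library and 159 CPM in the mock library (2.86-fold lower, 2.67 to 3.05). Gabra4 had 109 CPM in the cuprizone library and 206 CPM in the mock library (log2 ratio -0.91). Gabra5 differed least, with 94.99 CPM in the cuprizone library and 103 CPM in the mock library, and its log2 ratio of -0.12 turned to 0.14 when mock replicate 1 stood in for mock replicate 2 (0.16 with cuprizone replicate 2 as well).

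Among glutamate receptors, Grin2c was the farthest apart, with 20 counts in the cuprizone library and 220 in the mock library (0.931 CPM under cuprizone and 10.8 CPM under mock, 11.6-fold lower, 7.31 to 19.3). That size rests on the library used: the 2 deposited cuprizone libraries that otherwise repeat it hold 121 and 130 counts, and with them the log2 ratio of -3.40 became -1.09 and -0.98. Grin1 had 9.59 CPM in the cuprizone library and 59.8 CPM in the mock library (6.23-fold lower, 5.37 to 7.26), and shares 13.5% of its exon bases with the antisense gene Grin1os. Grin2a, the most abundant NMDA subunit per length, had 137 CPM under cuprizone and 314 CPM under mock (2.30-fold lower, 2.20 to 2.40).

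All 4 AMPA subunits were at least 2-fold lower. Gria3 had 49.7 CPM in the cuprizone library and 206 CPM in the mock library (4.15-fold lower, 3.88 to 4.45), and Gria1 had 164 CPM under cuprizone and 359 CPM under mock (2.19-fold lower, 2.11 to 2.28). All 6 metabotropic receptors measured were at least 2-fold lower too. Grm4, a presynaptic receptor, had 31 counts in the cuprizone library and 153 in the mock library (5.19-fold lower, 3.51 to 7.90), and Grm8, of the same subgroup, had 2.42 CPM under cuprizone and 12.3 CPM under mock (5.07-fold lower, 3.75 to 6.98). Grm5 had 55.3 CPM under cuprizone and 123 CPM under mock (2.22-fold lower, 2.08 to 2.39).

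Kainate subunits lay closer together in the pair of libraries used. None of the 5 was 2-fold apart, with log2 ratios from -0.78 for Grik4 to 0.20 for Grik1. For Grik1 and Grik3 this rests on the mock library used. Mock replicate 1, which otherwise repeats mock replicate 2, holds 110 and 160 counts of them, against 42 and 103 in mock replicate 2. The cuprizone library holds 51 and 72. Grik2, Grik4 and Grik5 hold 402, 371 and 117 counts in mock replicate 1 and 395, 365 and 113 in mock replicate 2. Grik4 had 10.3 CPM in the cuprizone library and 17.9 CPM in the mock library, and it and Grik2 were among the 28 called lower in the fit of 9 libraries. Of the NMDA subunits, Grin3a had 276 counts in the cuprizone library and 260 in the mock library (log2 ratio 0.01), where mock replicate 1 holds 367. Grin2d had 26 counts under cuprizone and 12 counts under mock. Grin2d had the highest ratio of all members, on counts too low to fix its size. Its log2 ratio with the prior count was 0.94, which is under 2-fold, and its fold without the prior count was 2.06 (1.00 to 4.48).

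**Figure D3:**
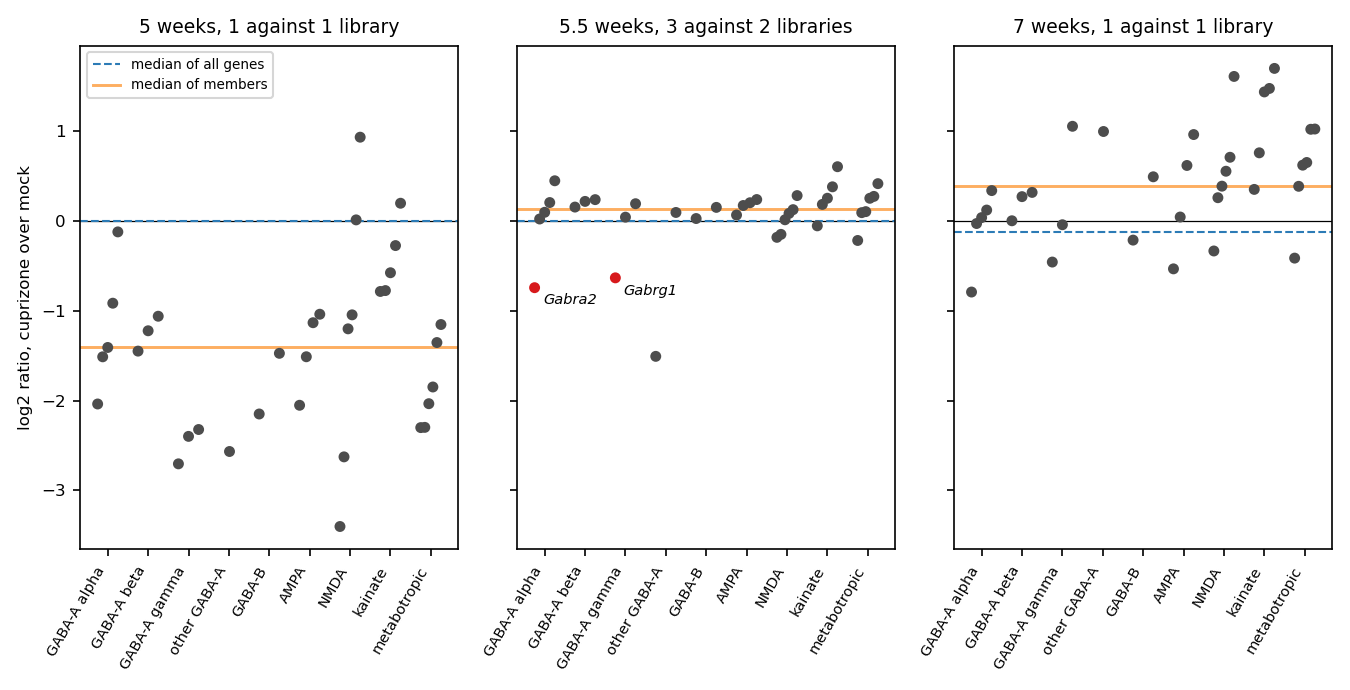
Log2 ratio of cuprizone over mock for each member (points) by receptor class at 5, 5.5 and 7 weeks. Lines mark the median of the members and of all genes measured, and red points were called at 5.5 weeks. The 5-week points lie mostly below -1 except the kainate subunits, and the 5.5-week points lie near 0 except Gabra2, Gabrg1 and Gabrr2.

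Receptor partners were divided at 5 weeks. Of 18 postsynaptic scaffolds, 0 were at least 2-fold lower and 1, Grip2, was higher (median log2 ratio 0.14), with Dlgap1 at 463 CPM in the cuprizone library and 408 CPM in the mock library. The 5 measured glycine and delta receptor subunits were all at least 2-fold lower (median -1.92), the lowest of them Glra2 at -2.71. Of 13 AMPA auxiliary subunits 3 were lower (median -0.79), of 10 GABA-A clustering and assembly genes 3 (median -0.44), of 4 GABA-B auxiliary and 2 kainate auxiliary subunits 0 (medians -0.02 and 0.06). Among 6 genes of transmitter synthesis and vesicle loading the vesicular transporters Slc17a6, Slc17a7 and Slc32a1 were lower (-1.88, -1.77 and -1.72), while the GABA-making enzymes Gad2 and Gad1 were at -0.10 and 0.87.

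Families of membrane and of cytosolic proteins were picked by symbol after the 5-week values were seen, so their contrast is no check on the receptor values. The membrane families had medians below 0 too. Among membrane proteins, 103 of 245 solute carriers were at least 2-fold lower and 12 higher (median -0.78), beside the 14.4% lower and 11.3% higher among all genes. Potassium channels had 32 of 68 lower and 2 higher (-0.90), voltage-gated calcium channel pores 8 of 12 lower and 0 higher (-1.38), cadherins and protocadherins 48 of 80 lower and 9 higher (-1.40), and receptor-type tyrosine phosphatases 11 of 18 lower and 1 higher (-1.28). Among cytosolic proteins, none of 46 ribosomal proteins of the large subunit was 2-fold apart (-0.22). Of 47 proteasome subunits 0 were lower and 3 higher (-0.12), of 22 tubulins 0 and 2 (0.05), of 33 kinesins 5 and 8 (0.30), and of 61 Rab GTPases 1 and 9 (0.08).

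Neuronal markers at 5 weeks were for the most part under 2-fold apart. Of 12 pan-neuronal markers 2 were lower, the synaptic vesicle membrane proteins Syp (27.1 CPM in the cuprizone library and 144 CPM in the mock library) and Syt1 (628 CPM under cuprizone and 1485 CPM under mock), and the list summed to 10397 CPM in the cuprizone library and 14832 CPM in the mock library. Of 11 excitatory markers 1 was lower, Slc17a7, and the list summed to 4549 CPM under cuprizone and 3625 CPM under mock. Interneuron markers had 4 of 10 lower and 2 higher (105 CPM under cuprizone and 142 CPM under mock), hippocampal markers 3 of 7 lower (180 CPM under cuprizone and 238 CPM under mock) and striatal markers 3 of 9 lower (200 CPM under cuprizone and 282 CPM under mock, with Drd2 at 0 in both). Mature oligodendrocyte markers had 8 of 12 lower (10107 CPM under cuprizone and 16041 CPM under mock), astrocyte markers 1 higher, Gfap, and 1 lower, Fgfr3, of 12 (list median log2 ratio -0.25), precursor markers 1 higher and 1 lower of 9 (365 CPM under cuprizone and 338 CPM under mock), and microglial markers 4 of 9 higher (71.5 CPM under cuprizone and 44.1 CPM under mock, with Itgam at 0 in both). The astrocyte list summed to 18292.5 CPM under cuprizone and 9265 CPM under mock, of which Gfap alone made up 9706 CPM under cuprizone and 904 CPM under mock. Of 7 vascular markers 3 were lower and 1 higher (24.7 CPM under cuprizone and 21.5 CPM under mock, with Tek at 0 in both libraries and Flt1 at 0 in the cuprizone library), and of 5 ependymal and choroid plexus markers 1 and 1 (37.3 CPM under cuprizone and 45.8 CPM under mock). The part of these cell types in the receptor values was not tested.

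**Figure D4:**
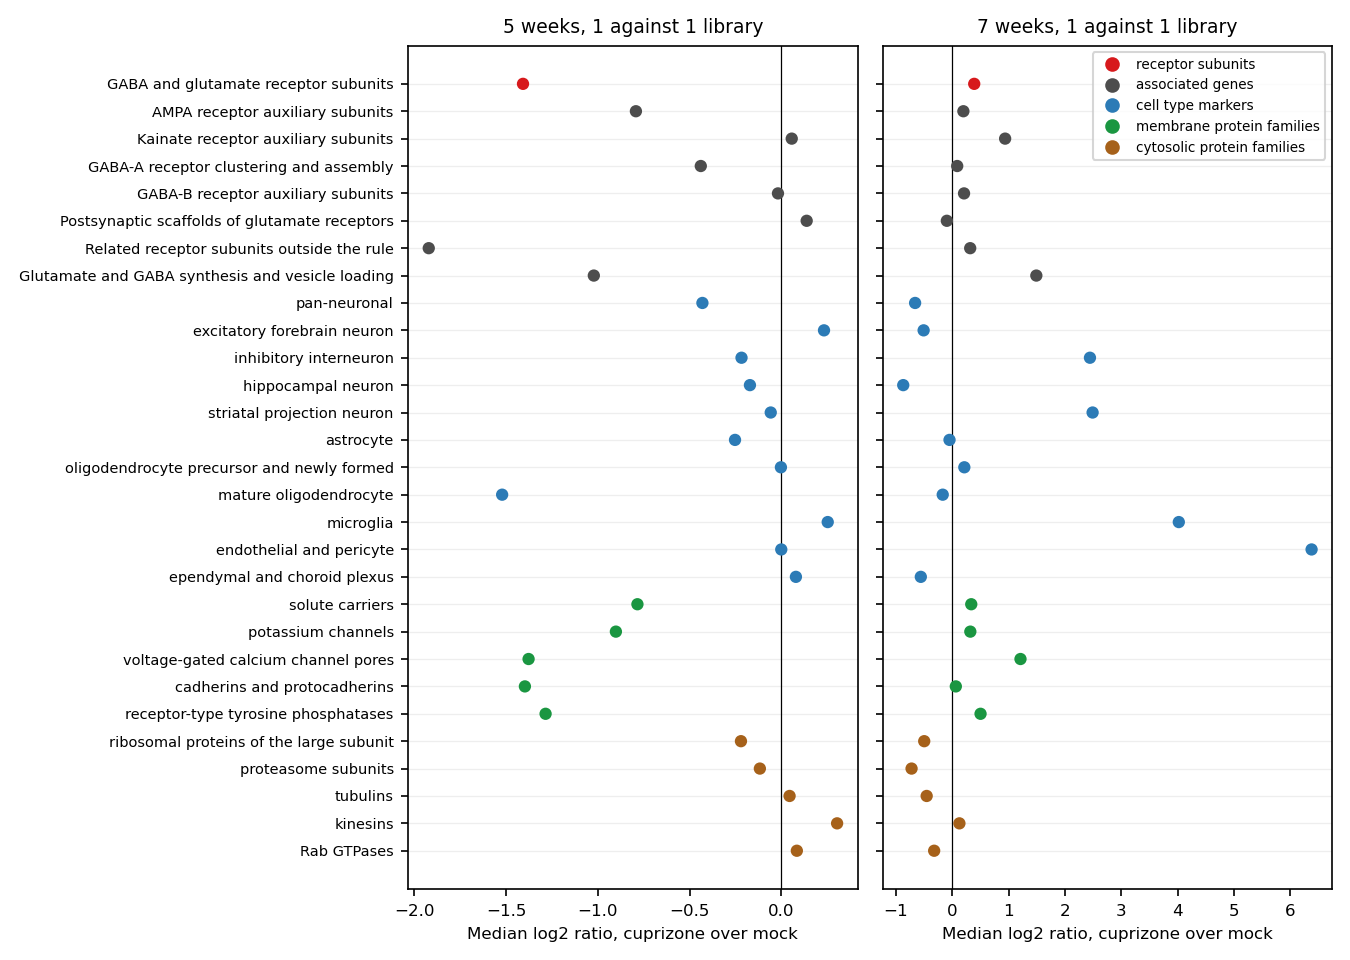
Median log2 ratio of cuprizone over mock at 5 weeks (left) and 7 weeks (right) for the receptor subunits, associated gene lists, cell type markers, and membrane and cytosolic protein families, 1 library per group. At 5 weeks the receptor subunits (-1.41) lie with the membrane families, which were picked after the 5-week values were seen. At 7 weeks the microglial and vascular markers lie farthest to the right.

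At 7 weeks, after 2 weeks on regular chow, several receptor subunits were higher in the cuprizone library than in the mock library, most of them of low level, and none was 2-fold lower. Of 35 members measured, 8 were at least 2-fold higher (11.3% of all genes) and 0 at least 2-fold lower (4.3%), while 27 ratios were above 1 (43.2%) and 8 below 1 (56.8%). With other deposited libraries of the week in place of the pair used, 4 to 8 were at least 2-fold higher over the 8 other pairs. Cuprizone replicate 1 gave 6 against mock replicate 1 and 4 against mock replicate 2 or 3, cuprizone replicate 2 gave 8 against mock replicate 1 or 2, and cuprizone replicate 3 gave 7 against mock replicate 1 and 5 against mock replicate 2 or 3. The edgeR fit of 9 libraries called 15 of 39 members higher at 7 weeks (24% of all genes tested) and 1 lower (15.4%). The median log2 ratio was 0.39 over members and -0.12 over all genes. Scaling by total counts moved the median of all genes to 0.24 and that of the members to 0.75. With 1 library per group, a change of scaling moves the ratios of all genes nearly alike. The gap of 0.51 between members and all genes was therefore bound to stay, and its staying is no check on it. Summed over the 43, the level was 3837 CPM in the cuprizone library and 3593 CPM in the mock library. The membrane protein families given for 5 weeks also had medians above 0. Solute carriers stood at 0.34 (45 of 245 at least 2-fold higher, 3 lower) and potassium channels at 0.32 (11 of 68 higher, 3 lower). Calcium channel pores stood at 1.21 (7 of 12 higher) and receptor-type tyrosine phosphatases at 0.50 (4 of 18 higher). Cadherins and protocadherins stood at 0.06 (10 of 80 higher, 3 lower). The cytosolic families lay from -0.72 to -0.32, except kinesins at 0.13.

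Kainate subunits made up 3 of the 8. Grik5, a subunit that joins other kainate subunits, had 13.2 CPM in the cuprizone library and 4.002 CPM in the mock library (3.30-fold higher, 2.65 to 4.13). That size rests on the libraries used. Mock replicates 1 and 2 hold 133 and 157 counts of Grik5, against 107 in the mock library used. Cuprizone replicate 3 holds 535, against 368 in the cuprizone library used. Over 15 alternatives the log2 ratio of 1.70 ran from 1.08 to 2.11. Grik3 had 29.5 CPM in the cuprizone library and 10.5 CPM in the mock library (2.80-fold, 2.44 to 3.22), and Grik1 11.9 CPM under cuprizone and 4.34 CPM under mock (2.74-fold, 2.21 to 3.42). Cuprizone replicate 3 holds 467 counts of Grik1, against 332 in the cuprizone library used. Grik4, the most abundant kainate subunit per length, was less far apart, with 16.0 CPM under cuprizone and 12.5 CPM under mock (log2 ratio 0.35). The NMDA subunit Grin2d, known from interneurons, had 3.01 CPM in the cuprizone library and 0.935 CPM in the mock library (3.22-fold, 2.04 to 5.25).

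The other 4 members at least 2-fold higher lay close to that limit. Gabrg3 had 25.4 CPM in the cuprizone library and 12.2 CPM in the mock library (2.09-fold, 1.83 to 2.39), and Gabrd had 47.2 CPM under cuprizone and 23.6 CPM under mock (2.00-fold, 1.82 to 2.21). Grm4 (2.05-fold, 1.73 to 2.43) and Grm8 (2.04-fold, 1.73 to 2.42) were the metabotropic receptors among them. At the other end, Gabra5 had 80.8 CPM in the cuprizone library and 140 CPM in the mock library (log2 ratio -0.79), and Gria1 had 385 CPM under cuprizone and 557 CPM under mock (-0.53). The Gabra5 log2 ratio was -0.20 with cuprizone replicate 1, which otherwise repeats that library, and -0.92 with cuprizone replicate 3, both against the same mock library. Gabra2 (-0.03) and Gabrg1 (-0.46, with 30.5 CPM under cuprizone and 41.8 CPM under mock) were under 2-fold apart.

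The 7-week cuprizone library also held many more transcripts of other cells. Microglial markers summed to 784 CPM in the cuprizone library and 48.8 CPM in the mock library, with 9 of 9 measured at least 2-fold higher, and vascular markers to 371 CPM under cuprizone and 22.8 CPM under mock, with 7 of 7 higher. Interneuron markers summed to 666 CPM under cuprizone and 138 CPM under mock (9 of 10 higher), and striatal projection neuron markers to 1069 CPM under cuprizone and 408 CPM under mock (8 of 9 higher). Other neuronal lists went the other way, with 6855 CPM in the cuprizone library and 10853 CPM in the mock library for pan-neuronal markers (0 of 12 at least 2-fold apart), 2587 CPM under cuprizone and 4027 CPM under mock for excitatory markers (2 of 11 lower) and 137 CPM under cuprizone and 420 CPM under mock for hippocampal markers (3 of 7 lower). Astrocyte markers summed to 12206 CPM under cuprizone and 11506 CPM under mock (1 of 12 higher), precursor markers to 427 CPM under cuprizone and 385 CPM under mock (1 higher and 1 lower of 9), mature oligodendrocyte markers to 14167.5 CPM under cuprizone and 19680 CPM under mock (3 of 12 lower) and ependymal and choroid plexus markers to 91.4 CPM under cuprizone and 80.8 CPM under mock (1 higher and 2 lower of 5). No marker of these lists was at 0 in either library. Associated genes at least 2-fold apart were 1 higher and 1 lower of 13 AMPA auxiliary subunits, 1 higher of 2 kainate auxiliary subunits, 2 higher of 18 scaffolds and 3 higher of 6 transmitter genes, Slc32a1, Gad2 and Gad1 (3.84, 2.49 and 2.42), with 0 of 10 GABA-A clustering, 0 of 4 GABA-B auxiliary and 0 of 5 glycine and delta receptor genes. The part of these cell types in the receptor values was not tested.

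The 7-week ratio also moved with exon length, taken as all exon bases of a gene together: its median over genes was -0.44 in the shortest decile and 0.40 in the longest. Receptor subunit genes are long by this measure, with a median of 6721 bases against 4457 bases over all genes measured. Set against genes of like exon length, 6 members were at least 2-fold higher at 7 weeks with a median of 0.31, and at 5 weeks 26 were at least 2-fold lower with a median of -1.49.

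Whether the effect of cuprizone differed between 7 and 5.5 weeks was tested in 1 edgeR fit of the 9 libraries, in which the lone 7-week libraries are assumed to vary like those of 5.5 weeks. Of 39 members tested, 11 had a higher effect at 7 weeks (10.3% of all 20292 genes tested) and 1, Gabra5, a lower effect (6.92%) at an adjusted p under 0.05. Without mock replicate 1 of 5.5 weeks, 3 members had a higher effect. Gabra2 was among the 11, with effects of 0.01 at 7 weeks and -0.73 at 5.5 weeks in that fit (difference 0.74 ± 0.23, SE, edgeR adjusted p 0.0304, and 0.0889 without that mock replicate). Gabrg1 was not, with -0.42 at 7 weeks and -0.62 at 5.5 weeks (difference 0.20 ± 0.24, SE, edgeR adjusted p 0.588). Gabra2 stood at 11.6 CPM per kilobase of exon in the 7-week cuprizone library and 11.5 in the 7-week mock library. The Gabra2 difference rests on the 7-week libraries used. Mock replicates 1 and 2 of 7 weeks hold 3633 and 3298 counts of it, against 2522 in the mock library used. Cuprizone replicate 3 holds 3084, against 2584 in the cuprizone library used. With all 17 libraries the difference was 0.54.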

How the data were processed

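Ribosome-bound RNA was counted per Ensembl gene in 17 libraries. The deposited values are whole-number counts, which per the submitters' processing notes were made with STAR 2.5.4b for alignment, featureCounts 1.6.0 for counting and FastQC 0.11.9, and the 8 libraries that repeat another are whole numbers of no stated unit. The notes name several genome builds, so no gene coordinates are taken from the files. Depth was 20797535 to 30400048 counts per library used. GENCODE M21 gave symbols for 99.6% of 55471 identifiers in batch 1 and 94.1% of 55414 in batch 2.

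The rule named 45 symbols, of which the antisense gene Grin1os and Grm3 were left out. At 5.5 weeks, edgeR 4.0.16 tested the genes that passed filterByExpr (minimum count 10), with TMM scaling (quasi-likelihood F test, robust, two-sided, Benjamini-Hochberg over all genes, threshold 0.05, 3 residual degrees of freedom) in R 4.3.3. The labels call the libraries biological replicates. At 5 and 7 weeks, CPM were compared with a prior count of 2 among genes with a mean of at least 1 CPM over 9 libraries. CPM of each week are on that week's own scaling, while levels per kilobase of exon and summed CPM are scaled over the 9 libraries. Exact (Clopper-Pearson) 95% intervals cover counting error only. Named were the members called, the 10 largest 2-fold differences at 5 and 7 weeks, the most abundant member of each class, the extremes and the members whose 7-week and 5.5-week effects differed; the rest of the chromosome 5 cluster and other members named were added after their values were seen. Values of some genes counted within classes and lists are not reported here. The members and lists were chosen with earlier results of these data known. Scripts were tested on simulated data. DESeq2 1.42.0 and limma 3.58.1 were alternatives.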

Additional observations from a re-analysis of the deposited data

Results flagged for a closer look

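In the edgeR fit of the 9 libraries, the effect of cuprizone differed between 7 and 5.5 weeks for 12 members, by the test of the difference itself (adjusted p under 0.05, with 1 library per group at 7 weeks assumed to vary like those of 5.5 weeks). The difference, as the log2 effect at 7 weeks minus that at 5.5 weeks, was highest for the rho subunit Gabrr2 at 2.504, followed by the NMDA subunit Grin2d at 1.86. The kainate subunits Grik3, Grik5 and Grik1 had 1.565, 1.563 and 1.225. The metabotropic receptors Grm4 and Grm8 had 1.28 and 0.96, and the AMPA subunit Gria4 had 0.93. Among GABA-A subunits, Gabrg3 had 1.05, Gabrd 0.93 and Gabra2 0.74. Gabra5 went the other way, at -1.21, with 2255 counts in the 7-week cuprizone library used, where deposited replicate 1 holds 3791 and replicate 3 holds 2259. Under 8 alternatives the difference ran from 2.304 to 2.633 for Gabrr2 and from 0.843 to 1.02 for Gria4. All 8 kept the 7-week libraries used here, so they cannot show how the differences depend on that pair. In the 7-week cuprizone library the interneuron, striatal, microglial and vascular marker lists stood apart as given above, and their part in these differences was not tested.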

How the results depend on the processing

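At 5.5 weeks the members called lower stayed between 2 and 3 under other scalings, tests and filters, and ran from 0 to 2 when 1 library was left out, and those called higher from 0 to 1. Without the filter on low counts 2 members were called higher, and in a fit of all 17 libraries 1. The counts over all genes, 173 higher and 63 lower, moved to 381 higher and 162 lower without a filter, 100 and 36 at 1 CPM in all 5 libraries, 614 and 175 with all 17 libraries, 314 higher with all 6 libraries of the week, and 49 to 189 higher and 16 to 85 lower with 1 library left out. With the replicate number as a block, 4 members were higher (Gabra5, Grik2 and Grik4 among them), 3 lower, and 481 genes higher and 269 lower; the labels do not say that numbers pair libraries, and same-numbered libraries deviated with correlations of 0.0388 and -0.0803. Without mock replicate 3, Gria1, Gabbr1 and Gabrd reversed to -0.011, -0.056 and -0.087, and their highest values were 0.41, 0.14 and 0.33, without mock replicate 1. For 7 against 5.5 weeks, members higher ran from 3 to 12 and lower from 0 to 2 with 1 library left out (3 without mock replicate 1), lower were 2 without a filter, and all 17 libraries gave 19 and 2. Over all genes, 2080 were higher and 1405 lower, against 5883 and 4053 with all 17 libraries, 877 lower by DESeq2 size factors, and 766 to 2320 lower with 1 library left out (1077 higher without mock replicate 1). At 5 weeks 1 member was 2-fold higher by total counts, with a prior count of 0.5, or with cuprizone 3 against mock 2, and 20 to 28 were lower. Over all genes, 1597 higher and 2041 lower became 3301 and 4005 with no level minimum, and 1016 higher at 5 CPM. At 7 weeks members higher were 5 by DESeq2 size factors or the mean of repeated libraries, 4 with cuprizone 1 against mock 2 or 3, 5 with cuprizone 3 against mock 2 or 3, and 15 in the 9-library edgeR fit. There 1 was lower, as with cuprizone 1 against mock 1 or 2 and cuprizone 2 against mock 1. Over all genes, 1608 higher and 610 lower at 7 weeks became 2591 and 159 by total counts and 9076 and 1356 with no level minimum, and those lower ran from 341 to 976 with other pairs of libraries and were 351 relative to genes of like exon length. The causes were not tested. Comparison with genes of like exon length and the added 7-week mock library (264 genes higher, 129 lower) were chosen after seeing the data. Depth limits Grin2d, Gabrr2 and the 8 members under 1 CPM.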

Other observations

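Of the members below the level minimum, Gabrr1 had 21 counts in the 7-week cuprizone library and 0 in the 7-week mock library, and Gabrr2 had 86 counts under cuprizone and 42 counts under mock. At 5 weeks, mock replicate 1, which otherwise repeats mock replicate 2, holds 36 counts of Gabrr2, against 0 in mock replicate 2 and 0 in each of the 3 cuprizone libraries.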
